A study of Mus musculus with 9 samples.

Results

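Integrins are the membrane receptors by which cells hold on to the extracellular matrix, and focal adhesion genes encode the proteins that tie their tails to the actin cytoskeleton. A list of 39 mouse genes was examined, 19 integrin subunits and 20 proteins of the adhesion site. Members were found by gene symbol, from the Ensembl identifiers of the deposited tables. Of the 39 genes, 37 had a row among the 20655 genes measured, while the subunit Itgb6 and the kindlin Fermt1 matched no row and were not analysed here. All 37 carried an adjusted p in each comparison, and 30 had a mean normalised count of 100 or more.

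The study sorted 3 stromal populations by surface protein from white fat and profiled each by messenger RNA sequencing, 3 libraries per population and 9 in all. DPP4+, ICAM1+ and CD142+ cells all came from the same source, digested subcutaneous fat (inguinal with axillary) of C57BL/6 mice aged 12 days, males and females together. DPP4 is a membrane peptidase, ICAM1 a ligand of leukocyte integrins, and CD142 is tissue factor, the product of F3. The series title places the populations in a hierarchy of mesenchymal progenitors, so the comparisons asked in which genes they differ. It is not stated whether replicate libraries were made from separate animals, nor how many animals were pooled. The p-values therefore rest on the spread from library to library, and that spread may be technical.

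An integrin is a pair of an alpha and a beta subunit, and the pair decides which matrix protein is bound. Partners of the beta1 chain bind collagens, laminins and fibronectin, while beta3 and beta5 pair with the alphaV chain and bind vitronectin and other proteins with the short motif called RGD. Talins and kindlins attach to the beta tail and switch the receptor to its binding state. The complex of ILK, PINCH and parvin, the kinase FAK with its partners paxillin and p130Cas, and actin linkers such as vinculin, zyxin, alpha-actinin, filamin and the tensins are then recruited. In fat, precursor cells lie in interstitial collagen and along vessels, and mature adipocytes are wrapped in a laminin-rich basement membrane.

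The deposited values are fold changes between populations from the authors' own fit, not values per library. Each difference below is a deposited log2 fold change with its standard error (SE), the first named population over the other. A gene passed where the deposited adjusted p was below 0.05. Of the 20655 genes, 17851 carried one in ICAM1+ against DPP4+, 17450 in CD142+ against DPP4+ and 15848 in ICAM1+ against CD142+. The adjustment thus covered these genes, not the members alone. Levels are fitted levels, the normalised read count per library implied for each population by the deposited mean and fold changes. They have no error of their own, so the spread behind a difference is carried by its SE, and the depth of each library is unknown. In bulk samples of this kind, fewer cells of a type and less RNA per cell cannot be told apart.

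The sort genes followed the population names in part. Fitted levels of Dpp4 were 5466 in DPP4+, 729 in CD142+ and 89.9 in the ICAM1+ cells, and those of F3 were 1469 in CD142+ cells against 243 and 310 in DPP4+ and ICAM1+ cells. Icam1 stood at 7966 in ICAM1+ and 7058 in CD142+ cells, a difference that did not pass. Fibroblast markers were abundant in all 3 populations, the collagen Col1a1 between 307651 and 537730 and the proteoglycan Dcn between 25511 and 33699. They were not even, however. Of 6 such markers, 1 was higher and 4 lower in ICAM1+ than in DPP4+ cells. Against CD142+ cells, 0 were higher and 4 lower in ICAM1+ cells, and in CD142+ against DPP4+ 1 was higher and 2 lower. Cd34 stood at 13820 in DPP4+, 3154 in ICAM1+ and 5095 in CD142+ cells.

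The populations also differed in transcripts of other cell types. Of 12 mural (pericyte and smooth muscle) markers, 8 were higher and 1 lower in ICAM1+ than in DPP4+ cells, and their summed level was 3791 in DPP4+, 8510 in CD142+ and 13412 in the ICAM1+ cells. The receptor Notch3 alone held 3887 of the ICAM1+ sum and 2444 of the CD142+ sum. The smooth muscle genes Acta2 and Myh11 had levels of 1263 and 1181 in ICAM1+ cells, against 171 to 359 for Acta2 and 205 to 289 for Myh11 in the other two. For 10 Schwann cell markers, the sum was 1436 in DPP4+, 3222 in ICAM1+ and 1324 in CD142+ cells, with 8 of the 10 higher in ICAM1+ cells in each of its comparisons. The 10 endothelial markers summed to 3043, 4699 and 2849 in the same order, with 7 higher in ICAM1+ cells in each of its comparisons and none passing in CD142+ against DPP4+. Leukocyte (10 genes), epithelial (6) and skeletal muscle (6) markers were low, at sums of 232 to 402, 25.1 to 123 and 83.9 to 119. Even so, 4 of the 6 epithelial markers were higher in ICAM1+ than in DPP4+ cells and 2 of 6 than in CD142+ cells, the keratin Krt14 standing at 27.3 in ICAM1+ against 0.41 in DPP4+ cells. Of the muscle markers, Myod1 alone was called, with 10.6 in ICAM1+ against 1.05 in DPP4+ cells, and Pax7 and Myf5 lay at 5.45 or less in every population. No marker was at 0.

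Against DPP4+ cells, most of the integrin and adhesion genes differed in ICAM1+ cells and about as many rose as fell. In ICAM1+ against DPP4+, 27 of the 37 passed (73.0%), 15 higher and 12 lower. Over all genes tested 24.4% passed, 12.4% higher and 12.0% lower, and among genes whose mean was 100 or more the share was 37.1%, where 23 of the 30 members of that level passed (76.7%). The median log2 fold change of the members was 0.21, and -0.07 over genes whose mean was 100 or more. Their median absolute log2 fold change was 0.57 for the 30 members of that level and 0.31 over all genes of that level.

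In CD142+ against DPP4+ cells, 18 of the 37 passed (48.6%), 9 in each direction. The background was 19.0% of all genes tested, 10.1% higher and 8.91% lower, and 28.5% among genes whose mean was 100 or more, where 16 of 30 members passed (53.3%). ICAM1+ and CD142+ cells differed in fewer members. There, 8 of 37 passed (21.6%), 7 higher and 1 lower in ICAM1+ cells, beside 9.05% of all genes tested, 3.77% higher and 5.28% lower. Among genes whose mean was 100 or more it was 5 of 30 members (16.7%) beside a background of 13.4%, so the share of the well measured members was near that of other genes. Of the 3 comparisons, each pair shares a population, so their calls are not independent of each other.

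**Figure D1:**
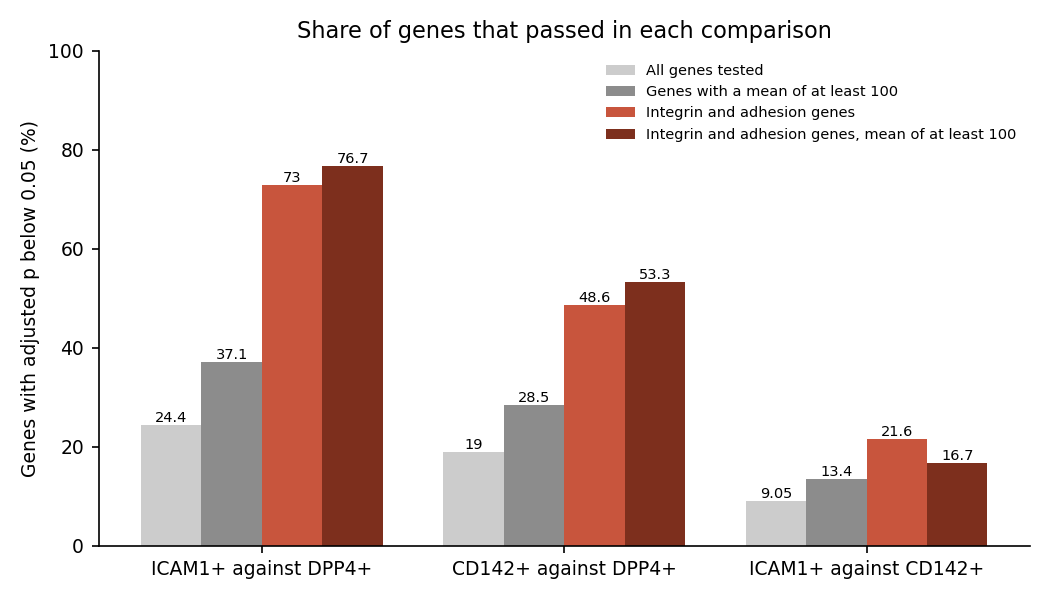
Percentage of genes with a deposited adjusted p below 0.05 (y axis, from 0) in each of 3 comparisons (x axis), for all genes tested, for genes with a mean normalised count of 100 or more, and for the 37 integrin and adhesion genes without and with that limit. The members' bars are 73.0, 48.6 and 21.6% against 24.4, 19.0 and 9.05% of all genes, and with the limit the last comparison gives 16.7 against 13.4%.

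Each member was also placed by the order of the populations. Most that differed set DPP4+ cells apart from both others. Higher in DPP4+ than in both other populations, which did not differ from each other past the threshold, were 8 members (Itga2, Itga11, Itga9, Itgb3, Itgb7, Lims2, Pxn and Zyx), a pattern of 6.34% of the 15848 genes tested in all comparisons. Lower in DPP4+ than in both, again with no call between the others, were 6 members (Itga8, Tln2, Bcar1, Actn1, Actn4 and Tns3), beside 6.06% of genes. A graded order in which all 3 comparisons passed was seen in 4 members. Itga1, Itga6 and Itga7 were lowest in DPP4+, intermediate in CD142+ and highest in the ICAM1+ cells, the order of 1.08% of genes, and Itgb5 followed the reverse order, that of 1.30% of genes. Higher in ICAM1+ than in both others, with no call between DPP4+ and CD142+ cells, were Itga4, Itgb8 and Flna, with 1.65% of genes in that class. No member was higher or lower in CD142+ cells than in both others. With no call between those others, these classes held only 1.16 and 0.37% of genes. Of the remaining members, 6 passed in ICAM1+ against DPP4+ alone. Itga5, Itgb4 and Vcl were higher and Itgav, Parva and Tns1 lower, beside 4.07 and 4.06% of genes. Parvb passed in ICAM1+ against CD142+ alone, higher in ICAM1+ cells, as did 0.48% of genes. The other 9 passed in no comparison (Itga3, Itga10, Itgb1, Tln1, Fermt2, Ilk, Lims1, Ptk2 and Tns2), beside 67.2% of genes.

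**Figure D2:**
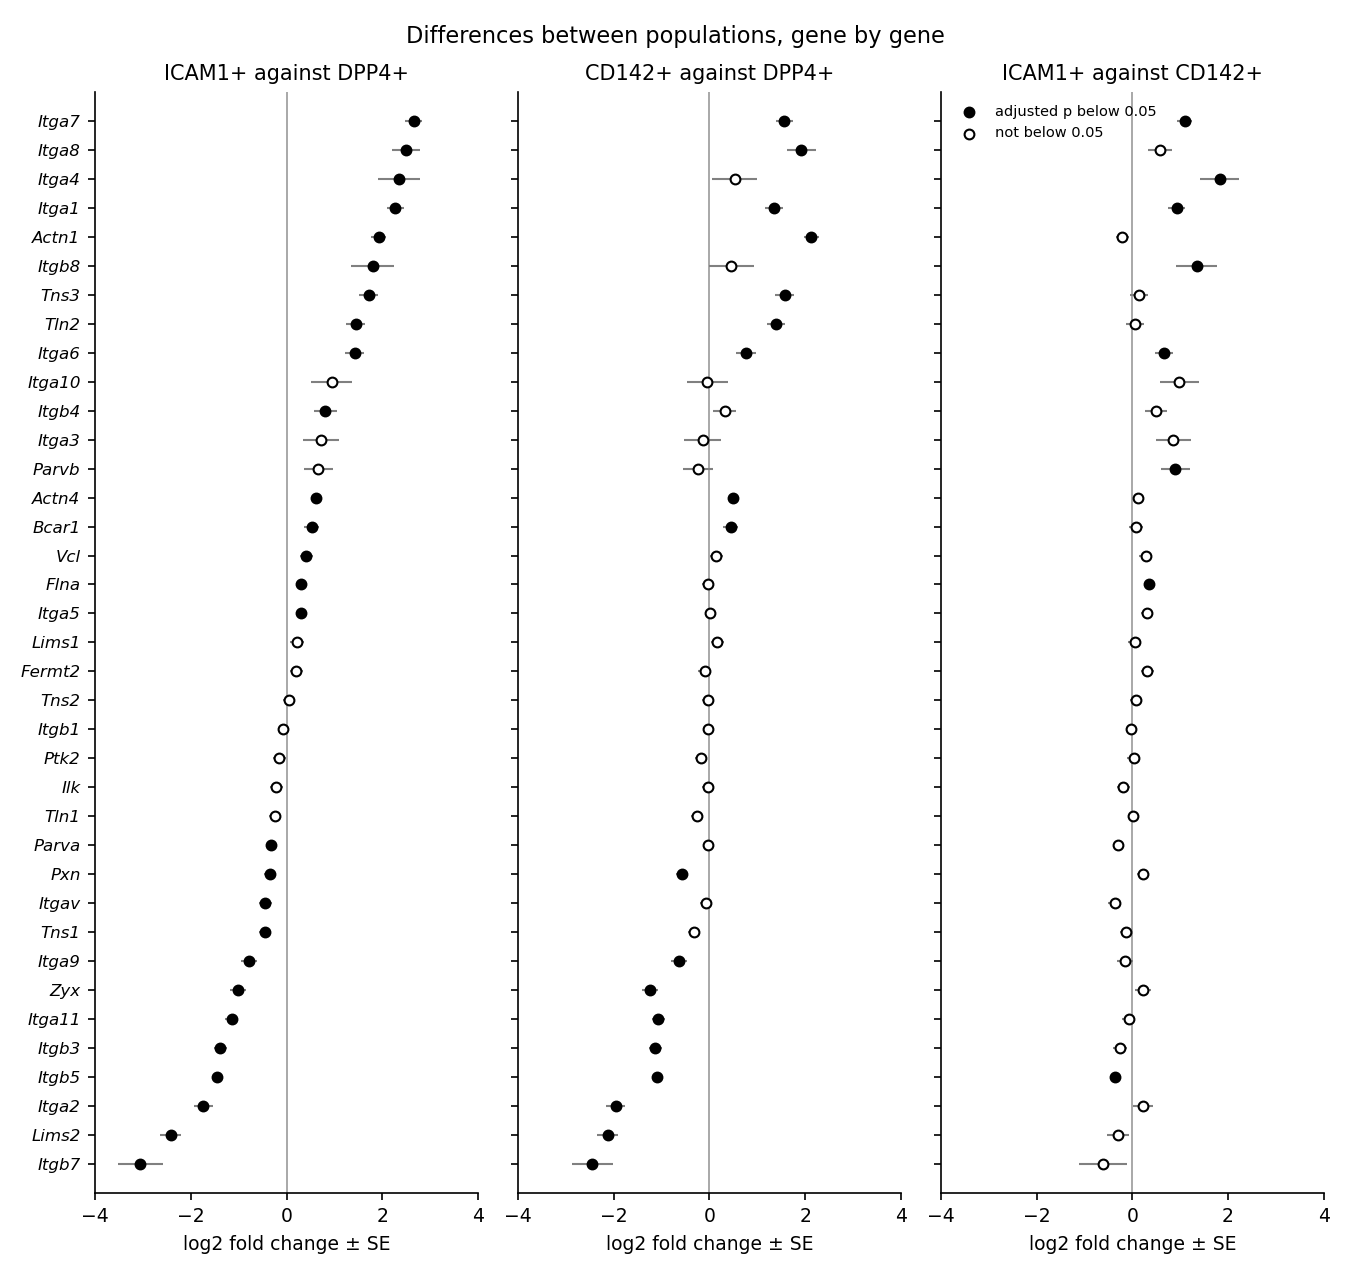
Deposited log2 fold changes (x axis) of the 37 genes (y axis, sorted by ICAM1+ against DPP4+) in 3 comparisons, with the SE as a bar and filled points for an adjusted p below 0.05. The left panel runs from Itgb7 at -3.06 to Itga7 at 2.66, and in the right panel most points lie near 0, with Itga4 the furthest at 1.83.

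Collagen-binding alpha subunits did not differ in 1 direction. Itga2 and Itga11 were higher in DPP4+ cells and Itga1 was lower there. Itga1, the alpha1 chain that binds collagens of the basement membrane among others, had fitted levels of 158 in DPP4+, 401 in CD142+ and 762 in the ICAM1+ cells. Its log2 fold change was 2.27 ± 0.18 (SE) in ICAM1+ and 1.35 ± 0.18 in CD142+ cells over DPP4+ cells (adjusted p = 1.61e-34 and 3.92e-12), and ICAM1+ exceeded CD142+ cells by 0.93 ± 0.17 (adjusted p = 3.11e-06). All 3 populations were therefore separate for Itga1. For Itga2, the alpha2 chain that prefers fibrillar collagen, levels were 342 in DPP4+, 102 in ICAM1+ and 87.8 in CD142+ cells. The differences from DPP4+ cells were -1.74 ± 0.20 in ICAM1+ and -1.96 ± 0.20 in CD142+ cells (adjusted p = 1.85e-17 and 5.27e-22). ICAM1+ and CD142+ cells differed in Itga2 by 0.22, with a 95% interval of -0.19 to 0.63 (adjusted p = 0.676).

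Itga11, the fibrillar collagen receptor of fibroblasts, was the most abundant of the group per kb of exon in every population. Its fitted levels were 1359 in DPP4+, 614 in ICAM1+ and 646 in CD142+ cells. The log2 fold changes were -1.15 ± 0.13 in ICAM1+ and -1.07 ± 0.13 in CD142+ against DPP4+ cells (adjusted p = 5.46e-16 and 3.94e-14). Itga10, a collagen receptor best known from cartilage, was low at 23.5 to 46.4 and passed in no comparison, its difference in ICAM1+ against DPP4+ being 0.94 (95% interval 0.12 to 1.76, adjusted p = 0.0879). Exons of another gene on the same strand cover 33.5% of the exon bases of Itga10, so a read there does not identify its gene. Per kb of exon, the 4 collagen-binding chains summed to 326 in DPP4+, 184 in ICAM1+ and 164 in CD142+ cells.

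Itga1 and Itga2 are neighbours in the genome. In mm10, Itga2 (ENSMUSG00000015533.9) spans chr13:114833081-114932100 and Itga1 (ENSMUSG00000042284.10) spans chr13:114953096-115101964, both on the minus strand with 20995 bases between them. They are thus the closest pair among the members, and their differences from DPP4+ cells had opposite signs. The windows around their starts are shown because the 2 genes of 1 locus differed from DPP4+ cells in opposite directions. Each holds 300 bases on the gene's strand, 250 before and 50 after the start, from RefSeq on GRCm38.p6, at chr13:115101915-115102214 for Itga1 and chr13:114932051-114932350 for Itga2. Capitals mark matches on either strand to GGGCGG (the GC box), GGAATG (the TEAD motif), TGANTCA (the AP-1 motif) or the CArG box of serum response factor.
Itga1: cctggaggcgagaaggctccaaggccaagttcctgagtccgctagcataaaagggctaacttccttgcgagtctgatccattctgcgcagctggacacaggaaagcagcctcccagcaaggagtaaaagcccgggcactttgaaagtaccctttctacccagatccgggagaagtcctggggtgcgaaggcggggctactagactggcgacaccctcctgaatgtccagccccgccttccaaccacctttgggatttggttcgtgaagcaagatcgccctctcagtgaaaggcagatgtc
Itga2: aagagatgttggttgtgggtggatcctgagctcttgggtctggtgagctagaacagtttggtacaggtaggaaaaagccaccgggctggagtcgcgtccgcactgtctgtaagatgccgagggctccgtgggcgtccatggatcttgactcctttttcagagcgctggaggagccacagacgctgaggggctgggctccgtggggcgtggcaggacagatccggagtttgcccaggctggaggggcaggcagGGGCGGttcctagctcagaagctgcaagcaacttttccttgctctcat
The Itga1 window held no match to the 4 motifs. In the Itga2 window there was 1 match, to GGGCGG, at bases 3 to 8 after the start. A match is a description of letters, and the lack of one says only that these letters are not in the window.

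Laminin-binding alpha subunits rose from DPP4+ through CD142+ to ICAM1+ cells in both members above a mean of 100. Itga7 (ENSMUSG00000025348.9, chr10:128933818-128958282), the alpha7 laminin receptor of muscle and vessel walls, had levels of 103 in DPP4+, 304 in CD142+ and 647 in the ICAM1+ cells. It had the highest log2 fold change of the 37 members in ICAM1+ against DPP4+, 2.66 ± 0.18 (adjusted p = 8.78e-49). The difference was 1.56 ± 0.18 in CD142+ against DPP4+ and 1.09 ± 0.16 in ICAM1+ against CD142+ (adjusted p = 1.3e-16 and 1.55e-09). Itga6, the alpha6 chain that pairs with beta1 or beta4, was at 221, 375 and 593 in the same order. For Itga6 the differences were 1.42 ± 0.20 in ICAM1+ and 0.76 ± 0.20 in CD142+ over DPP4+ cells, and 0.66 ± 0.20 between ICAM1+ and CD142+ cells (adjusted p = 3.77e-11, 0.00148 and 0.013). Itga3, the chain of the other epithelial laminin receptor, was low at 29.3 to 53.0 and passed nowhere.

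Marker sums of other cell types followed the order of this group only in part. Summed mural markers ran in the same order as Itga7, Itga6 and Itga1, from 3791 in DPP4+ through 8510 in CD142+ to 13412 in ICAM1+ cells. Of the 12, 7 were higher and none lower in CD142+ than in DPP4+ cells. Between ICAM1+ and CD142+ cells, 8 were higher and 2 (Kcnj8 and Abcc9) lower in ICAM1+ cells. Kcnj8 was highest in DPP4+ cells, at 399 against 95.9 in ICAM1+ cells. Schwann and endothelial sums stood highest in ICAM1+ cells and were 1324 and 2849 in CD142+ against 1436 and 3043 in DPP4+ cells. Epithelial markers, at far lower levels, summed to 25.1 in DPP4+, 56.3 in CD142+ and 123 in the ICAM1+ cells, the order of the laminin-binding chains. The part of these markers in the integrin differences was not tested.

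The fibronectin receptor was by far the most abundant integrin, and it differed little. Itga5 (ENSMUSG00000000555.7, chr15:103344286-103366763), its alpha chain, had levels of 3213 in DPP4+, 3984 in ICAM1+ and 3242 in CD142+ cells. ICAM1+ exceeded DPP4+ cells by 0.31 ± 0.11 (adjusted p = 0.026), a fold of 1.24. CD142+ and DPP4+ cells differed in Itga5 by 0.01, with a 95% interval of -0.21 to 0.23. Itgb1 (ENSMUSG00000025809.15, chr8:128685654-128733200), the beta1 chain shared by all collagen and laminin receptors named here except the pair of alpha6 with beta4, was at 5457, 5205 and 5337 in DPP4+, ICAM1+ and CD142+ cells. None of its comparisons passed, and the 95% intervals reached from -0.27 to 0.13 for ICAM1+ against DPP4+, from -0.23 to 0.17 for CD142+ against DPP4+ and from -0.24 to 0.16 for ICAM1+ against CD142+. These bounds lie below the differences from DPP4+ cells measured for its alpha partners Itga1, Itga2, Itga7 and Itga11.

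Subunits of the RGD-binding receptors for vitronectin were higher in DPP4+ cells through their beta chains. Itgb5 (ENSMUSG00000022817.14, chr16:33829665-33949338) had levels of 2899 in DPP4+, 1362 in CD142+ and 1059 in the ICAM1+ cells. Its log2 fold changes were -1.45 ± 0.11 in ICAM1+ and -1.09 ± 0.11 in CD142+ against DPP4+ cells, and -0.36 ± 0.11 in ICAM1+ against CD142+ (adjusted p = 6.03e-36, 9.82e-21 and 0.0205). Itgb3 (ENSMUSG00000020689.4, chr11:104608000-104670476) stood at 1727, 790 and 662 in DPP4+, CD142+ and ICAM1+ cells. It was lower than in DPP4+ cells by -1.38 ± 0.14 and -1.13 ± 0.14 on the log2 scale in ICAM1+ and CD142+ cells (adjusted p = 9.65e-21 and 4.17e-14), which did not differ from each other past the threshold (-0.25, 95% interval -0.54 to 0.03). Itgav, the alpha chain of both vitronectin receptors, differed less in size. Its levels were 1018 in DPP4+, 968 in CD142+ and 748 in the ICAM1+ cells, and only ICAM1+ against DPP4+ passed (-0.45 ± 0.13, adjusted p = 0.00544).

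Of the next 4 subunits, Itga8, Itga4 and Itgb7 were low, with means under 100, and Itga9 was not. Itga8, an alpha chain of smooth muscle and kidney mesenchyme that binds nephronectin, had a mean of 82.3 and levels of 23.7 in DPP4+, 89.6 in CD142+ and 134 in the ICAM1+ cells. It was higher than in DPP4+ cells by 2.49 ± 0.30 in ICAM1+ and 1.92 ± 0.30 in CD142+ cells (adjusted p = 1.35e-15 and 3.1e-09). Itga9, which binds tenascin-C and osteopontin, was at 773 in DPP4+, 499 in CD142+ and 447 in the ICAM1+ cells, with differences of -0.79 ± 0.16 and -0.63 ± 0.16 in ICAM1+ and CD142+ against DPP4+ cells (adjusted p = 1.54e-05 and 0.000905). Itga4, the receptor for VCAM1 and fibronectin, went from 12.0 in DPP4+ and 17.3 in CD142+ to 61.4 in ICAM1+ cells. The ICAM1+ level of Itga4 exceeded DPP4+ by 2.35 ± 0.44 and CD142+ by 1.83 ± 0.41 (adjusted p = 1.1e-06 and 0.000243). For Itgb7, a partner of alpha4 in lymphocytes, the order was the reverse, with 73.1 in DPP4+, 13.4 in CD142+ and 8.75 in the ICAM1+ cells. Its difference of -3.06 ± 0.47 in ICAM1+ against DPP4+ (adjusted p = 1.38e-09) was the lowest of the 37 members, from a mean of only 31.7.

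Itgb4 and Itgb8 were higher in ICAM1+ cells. Itgb4, the partner of alpha6 in hemidesmosomes and in Schwann cells, had levels of 86.8 in DPP4+, 108 in CD142+ and 152 in the ICAM1+ cells and passed in ICAM1+ against DPP4+ alone (0.81 ± 0.24, adjusted p = 0.00424). Itgb8, an alphaV partner that activates latent TGF-beta, was at 21.1, 29.1 and 73.8 in the same order, higher in ICAM1+ than in DPP4+ cells by 1.80 ± 0.45 and than in CD142+ cells by 1.34 ± 0.43 (adjusted p = 0.000481 and 0.0263). In the same libraries the Schwann cell factor Sox10 had a level of 42.2 in ICAM1+ cells, against 7.20 to 7.83 in the others, beside the sums of the whole marker list given above. Of the 10 Schwann markers, 9 were highest in ICAM1+ cells, S100b was highest in CD142+ cells (78.7), and 2 were higher in CD142+ than in DPP4+ cells. All 10 endothelial markers were highest in ICAM1+ cells as well, with no call between CD142+ and DPP4+ cells. Itga4, Itgb4 and Itgb8 also had their highest level in ICAM1+ cells and no call between CD142+ and DPP4+ cells. The same held for Itga5, Vcl, Flna and Parvb among the members that passed elsewhere. The part of Schwann or endothelial cells in these genes was not tested. Of the 10 leukocyte markers, 9 were highest in ICAM1+ cells, and none was called in ICAM1+ against DPP4+. Csf1r was higher in ICAM1+ than in CD142+ cells and Cd3e in CD142+ than in DPP4+ cells (adjusted p = 0.039 and 0.0444). The 6 leukocyte and platelet integrin subunits with a row, among them Itgal, Itgam and Itgb2, passed nowhere. They had means of 1.15 to 93.6, the highest being Itga2b. The part of leukocytes in the member differences was not tested.

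**Figure D3:**
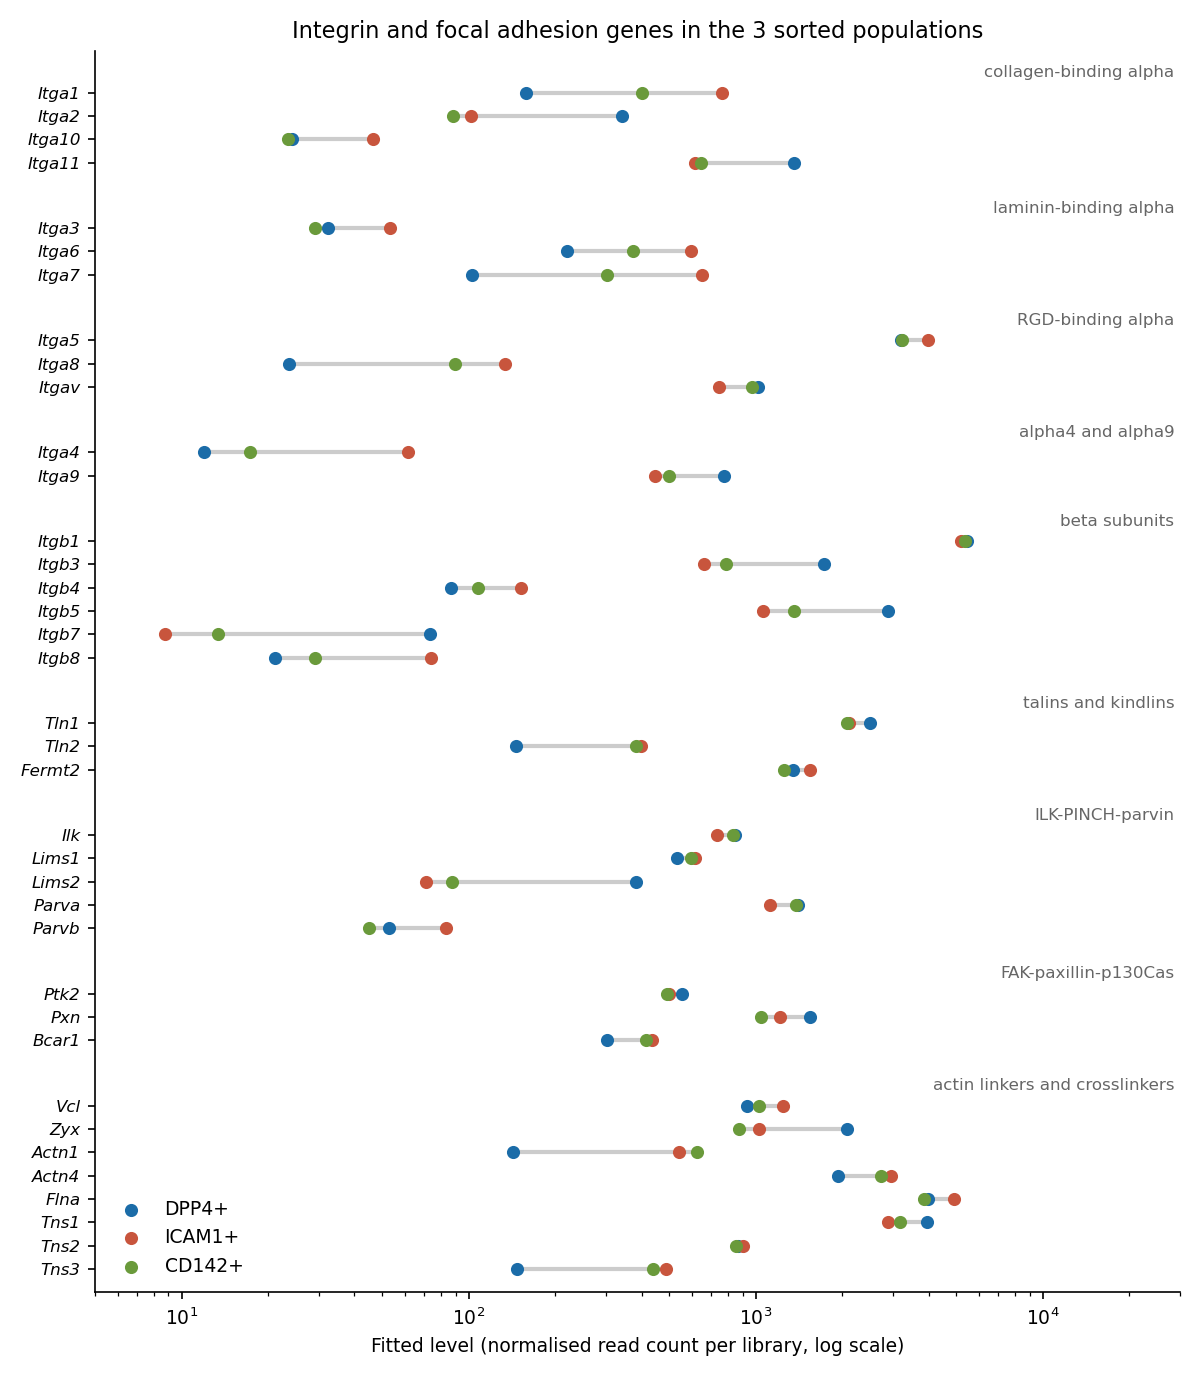
Fitted level (x axis, normalised read count per library, log scale) of each of 37 genes (y axis, grouped by role) in DPP4+, ICAM1+ and CD142+ cells, 1 point per population, with a grey line from the lowest to the highest. Points nearly coincide for Itgb1 (5205 to 5457) and lie far apart for Itga7 (103 to 647) and Lims2 (71.2 to 382).

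Levels per kb of exon, the only scale on which different genes are compared here, show the make-up of the receptor transcripts. Itga5 led the 12 alpha chains in every population, with 53.4% of their sum in DPP4+, 62.3% in ICAM1+ and 61.2% in CD142+ cells. Itga11 was the next in all of them, at 21.7, 9.22 and 11.7%. The third place went to Itga9 in DPP4+ cells (8.24%), to Itga7 in ICAM1+ cells (6.17%) and to Itgav in CD142+ cells (8.39%), though Itgav was close behind Itga9 in DPP4+ cells at 7.77%. Laminin-binding chains made up 3.51% of the alpha sum in DPP4+, 7.84% in CD142+ and 12.0% in the ICAM1+ cells. Collagen-binding chains made up 26.7, 15.3 and 14.2% in the same order. Shares have no error here, because they come from fitted levels.

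Among the 6 beta chains, Itgb1 held 53.8% of the sum per kb in DPP4+ cells, 74.3% in ICAM1+ and 70.8% in CD142+ cells. Itgb5 held 32.8, 17.4 and 20.7% and Itgb3 11.8, 6.53 and 7.24%, while Itgb4, Itgb7 and Itgb8 stayed at or under 1.26% each. The sum over beta chains was 2486 per kb in DPP4+ cells, 1717 in ICAM1+ and 1848 in CD142+ cells. As Itgb1 itself was at 1337, 1275 and 1308 per kb, the gap between the sums was made by Itgb5 and Itgb3. Alpha sums were closer, at 1220, 1297 and 1074.

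**Figure D4:**
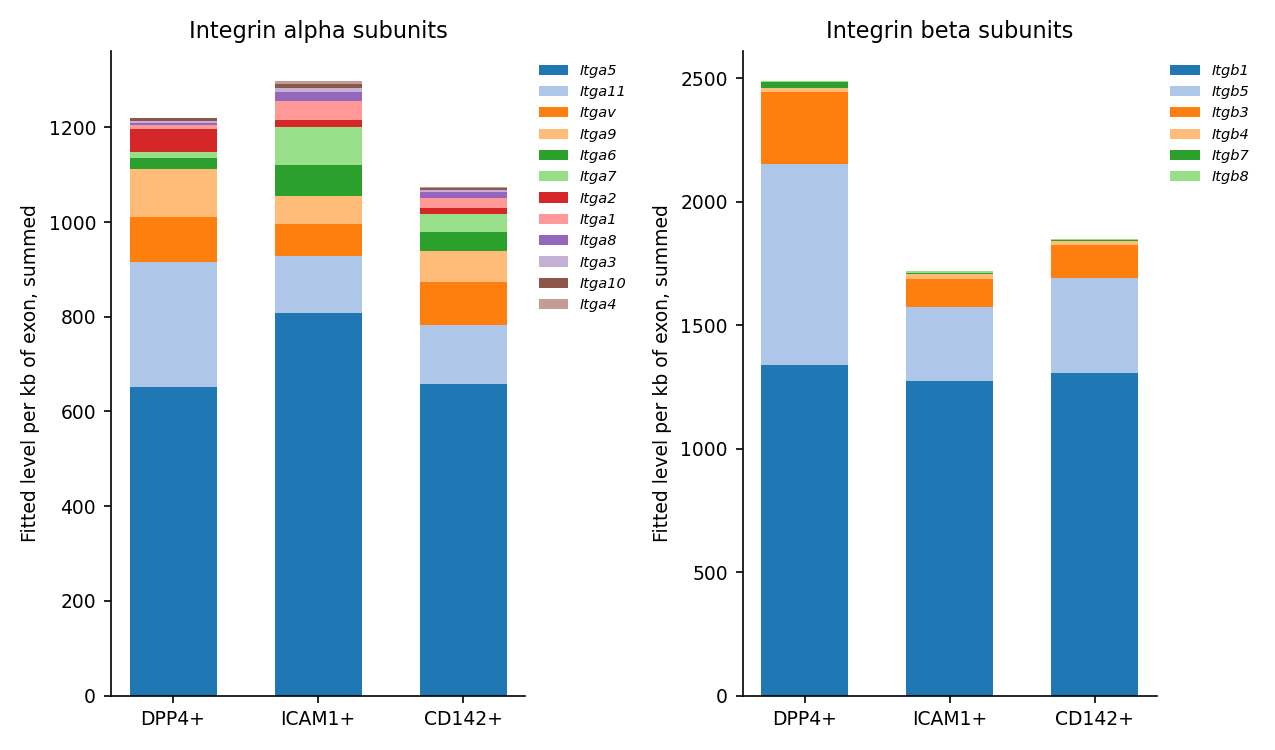
Stacked fitted levels per kb of exon (y axis, from 0) of 12 integrin alpha and 6 beta subunits in the 3 populations (x axis), 1 colour per gene. The Itgb1 blocks are of like height (1275 to 1337), while the Itgb5 and Itgb3 blocks are tallest in DPP4+ cells (816 and 293).

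Proteins that activate integrins were split by paralog. Tln2 (ENSMUSG00000052698.15, chr9:67217087-67559703), the second talin, had levels of 146 in DPP4+, 397 in ICAM1+ and 383 in CD142+ cells. It was higher than in DPP4+ cells by 1.44 ± 0.19 in ICAM1+ and 1.39 ± 0.19 in CD142+ cells (adjusted p = 2.12e-12 and 1.54e-11). Tln1, the talin of most cells, was at 2083 to 2499 and passed in no comparison, the differences from DPP4+ being -0.24 (95% interval -0.47 to -0.01) in ICAM1+ and -0.26 (-0.49 to -0.03) in CD142+ cells before adjustment. Per kb, Tln1 stood at 213 to 255 and Tln2 at 7.96 to 21.6. Fermt2, the kindlin of fibroblasts, lay between 1250 and 1551 and passed in none.

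In the ILK, PINCH and parvin complex, 1 of 5 members stood out. Lims2 (ENSMUSG00000024395.8), which encodes the second PINCH adaptor, was at 382 in DPP4+, 71.2 in ICAM1+ and 87.3 in CD142+ cells. The differences of -2.42 ± 0.22 in ICAM1+ and -2.13 ± 0.21 in CD142+ against DPP4+ (adjusted p = 4.06e-26 and 1.4e-21) were 5.37-fold and 4.38-fold in size. Its paralog Lims1 was at 531 to 615 and passed nowhere, with a 95% interval of -0.07 to 0.49 in ICAM1+ against DPP4+. Ilk lay at 733 to 850 with no call, but exons on the other strand cover 89.7% of its exon bases, so its reads cannot be told from those of its neighbour without strand information. Parva, alpha-parvin, was at 1404 in DPP4+, 1379 in CD142+ and 1122 in the ICAM1+ cells and passed in ICAM1+ against DPP4+ alone (-0.32 ± 0.11, adjusted p = 0.0222). Parvb, beta-parvin, had a mean of 60.4 and was higher in ICAM1+ than in CD142+ cells by 0.89 ± 0.31 (adjusted p = 0.0401). The Parva call was lost when fold changes were re-centred on the median gene (adjusted p = 0.0875), and the Parvb call when p was adjusted over every gene (0.0521).

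In the signalling core of the adhesion, Ptk2 did not differ past the threshold, while Pxn and Bcar1 differed from DPP4+ cells in both other populations. Ptk2, which encodes the kinase FAK, had levels of 554 in DPP4+, 500 in ICAM1+ and 489 in CD142+ cells and passed in no comparison (95% interval -0.41 to 0.11 in ICAM1+ against DPP4+). Pxn, the scaffold paxillin, was at 1547, 1217 and 1040 in DPP4+, ICAM1+ and CD142+ cells, lower than in DPP4+ cells by -0.57 ± 0.13 in CD142+ and -0.35 ± 0.13 in ICAM1+ cells (adjusted p = 0.000109 and 0.0333). After re-centring, the latter no longer passed (adjusted p = 0.105). Bcar1, the scaffold p130Cas that FAK and Src phosphorylate, was at 304 in DPP4+, 436 in ICAM1+ and 414 in CD142+ cells, higher than in DPP4+ by 0.52 ± 0.15 and 0.45 ± 0.15 (adjusted p = 0.00471 and 0.0236).

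Among the actin linkers, 5 of 8 were higher and 2 lower in ICAM1+ than in DPP4+ cells. Actn1 (ENSMUSG00000015143.15, chr12:80167547-80260371), the alpha-actinin that crosslinks stress fibres, had levels of 143 in DPP4+, 542 in ICAM1+ and 625 in CD142+ cells. It was higher than in DPP4+ cells by 1.92 ± 0.16 in ICAM1+ and 2.13 ± 0.16 in CD142+ cells (adjusted p = 7.11e-33 and 8.46e-41). Its difference of 2.13 was the highest among the members in CD142+ against DPP4+. Actn4, the other alpha-actinin of cells outside muscle, was at 1937, 2964 and 2736 and followed with smaller differences of 0.61 ± 0.10 and 0.50 ± 0.10 (adjusted p = 6.93e-08 and 2.46e-05). Tns3, a tensin that binds beta tails and actin, went from 148 in DPP4+ to 485 in ICAM1+ and 439 in CD142+ cells, by 1.72 ± 0.20 and 1.57 ± 0.20 (adjusted p = 8.96e-17 and 4.16e-14). None of these passed between ICAM1+ and CD142+ cells.

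Zyx (ENSMUSG00000029860.16, chr6:42349630-42360213) ran the other way. Zyxin, a LIM protein that gathers on strained stress fibres and binds alpha-actinin, had levels of 2072 in DPP4+, 1024 in ICAM1+ and 875 in CD142+ cells. The differences from DPP4+ cells were -1.02 ± 0.17 in ICAM1+ and -1.24 ± 0.17 in CD142+ cells (adjusted p = 4.48e-08 and 9.15e-12). Tns1 was at 3959 in DPP4+, 3179 in CD142+ and 2899 in the ICAM1+ cells and passed in ICAM1+ against DPP4+ (-0.45 ± 0.12, adjusted p = 0.00167), while CD142+ against DPP4+ fell just outside the threshold (-0.32 ± 0.12, adjusted p = 0.0501). Tns2 lay at 853 to 900 with no call.

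Vinculin and filamin A differed by less than Actn1, Tns3 and Zyx. Vcl was at 930 in DPP4+, 1025 in CD142+ and 1241 in the ICAM1+ cells, with 0.42 ± 0.13 in ICAM1+ against DPP4+ (adjusted p = 0.0101), and exons on the other strand cover 25.5% of its exon bases. Flna, the actin crosslinker that also binds beta tails, was at 3966, 3857 and 4920 in DPP4+, CD142+ and ICAM1+ cells. It was higher in ICAM1+ cells than in DPP4+ cells by 0.31 ± 0.11 and than in CD142+ cells by 0.35 ± 0.11 (adjusted p = 0.0191 and 0.0164). The fold was 1.24 and 1.28.

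The windows at the starts of Zyx and Actn1 are shown because their products bind each other and their transcripts differed from DPP4+ cells in opposite directions. They lie at chr6:42349578-42349877 on the plus strand and chr12:80260314-80260613 on the minus strand of GRCm38.p6, each 68.3% G or C, with capitals as above.
Zyx: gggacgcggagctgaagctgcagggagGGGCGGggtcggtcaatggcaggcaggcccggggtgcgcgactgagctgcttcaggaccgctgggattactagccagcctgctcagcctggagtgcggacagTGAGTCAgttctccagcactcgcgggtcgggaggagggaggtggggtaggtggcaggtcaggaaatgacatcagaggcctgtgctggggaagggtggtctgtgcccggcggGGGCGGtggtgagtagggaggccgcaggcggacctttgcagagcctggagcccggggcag
Actn1: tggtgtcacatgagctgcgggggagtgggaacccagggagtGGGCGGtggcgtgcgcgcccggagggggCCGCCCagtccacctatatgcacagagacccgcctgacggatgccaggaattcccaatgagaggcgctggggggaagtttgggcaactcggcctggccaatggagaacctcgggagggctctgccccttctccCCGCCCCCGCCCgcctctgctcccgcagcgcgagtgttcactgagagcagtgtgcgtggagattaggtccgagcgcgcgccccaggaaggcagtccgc
Zyx held 2 matches to GGGCGG and 1 to TGANTCA, the latter from 121 to 115 bases before the RefSeq start. That start lies inside the gene span given above for Zyx, and so does the TGANTCA match. Actn1 held 4 matches to GGGCGG and none to the other motifs. In these windows no match overlapped one of another motif. The RefSeq table had windows for 28 of the 37 members, 33 windows in all, with a median of 66.7% G or C beside 52.7% over all 32851 windows. GGGCGG was in 21 of the 33 (63.6%) and in 35.7% of all windows, GGAATG in 5 (15.2%) and 14.7%, TGANTCA in 4 (12.1%) and 7.81%, and the CArG box in 2 (6.06%, Fermt2 and Vcl) and 1.63%.

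Genes of the same pathway outside the 39 were read from lists of adhesion adaptors, kinases and GTPases, and integrin inhibitors and partners. With the leukocyte subunits, 77 of 79 listed genes had a row. In ICAM1+ against DPP4+ 19 were higher and 24 lower, 58.9% of the 73 with an adjusted p, beside 24.4% of all genes tested and 37.1% of those with a mean of 100 or more. In CD142+ against DPP4+ it was 17 higher and 15 lower (43.8% of 73, beside 19.0 and 28.5%), and in ICAM1+ against CD142+ 5 higher and 9 lower (20.0% of 70, beside 9.05 and 13.4%). Among the 25 kinases, exchange factors and GTPases, 4 were higher and 10 lower in ICAM1+ than in DPP4+ cells, and 2 higher and 10 lower in CD142+ than in DPP4+ cells. The 34 adaptors split the other way in CD142+ against DPP4+, with 10 higher and 4 lower.

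Apbb1ip, the RIAM protein that brings talin to the membrane, was at 100.2 in DPP4+, 294 in ICAM1+ and 302 in CD142+ cells, with 1.55 ± 0.19 and 1.59 ± 0.19 against DPP4+ (adjusted p = 1.75e-14 and 3.14e-15). That order, low in DPP4+ and alike in the others, was the one of Tln2 and of 6.06% of genes, while Tln1 passed in no comparison. A link between Apbb1ip and Tln2 was not tested.

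Palladin (Palld), supervillin (Svil) and caveolin-1 (Cav1) were also lowest in DPP4+ cells. Palld was at 446, 1174 and 912 and Cav1 at 910, 2001 and 1911 in DPP4+, ICAM1+ and CD142+ cells. Svil, an actin and myosin binding protein, was higher in CD142+ than in DPP4+ cells by 1.15 ± 0.13 (adjusted p = 2.11e-18). Itgbl1, Fhl2 and Dab2 were highest in CD142+ cells. Itgbl1, a secreted protein resembling a beta subunit, was at 1273 in CD142+, 892 in DPP4+ and 262 in ICAM1+ cells, and ICAM1+ was below CD142+ by -2.28 ± 0.14 (adjusted p = 1.51e-54). Fhl2, a LIM protein of adhesions and nucleus, was at 179 in CD142+ cells against 48.7 and 77.9 in DPP4+ and ICAM1+ cells, and Dab2, an endocytic adaptor of integrins, at 876 against 492 and 564. ICAM1+ cells were lower than CD142+ cells in Cnn2 and Kank2, a calponin and a talin-binding protein, by -0.66 ± 0.19 and -0.60 ± 0.12 (adjusted p = 0.0101 and 4.82e-05).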

How the data were processed

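The series holds 9 messenger RNA sequencing libraries, 3 each of DPP4+, ICAM1+ and CD142+ cells, grouped by the population in their labels. Per the labels, RNA was selected with oligo(dT), copied with random hexamers and sequenced from both ends, and no step that marks the strand is described. Tools named in the submitters' processing notes are STAR 2.5.2a, DESeq2 and R 3.5.1, with the mouse build mm10. Which annotation release and strand setting were used is not given in the sources used here.

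Deposited were 3 tables of pairwise comparisons that the authors made with DESeq2, and every fold change, SE and p-value in the text is theirs. The mean column is a deposited signal, counts scaled by size factors and averaged over the libraries. Log2 fold changes with standard errors come from the authors' fit. The deposited Wald statistic is a score equal to their ratio. The p-values and adjusted p-values (Benjamini and Hochberg) were deposited too, and an empty one was kept as such. Of 20659 rows, 4 are STAR's summary classes, which held 59.6% of the mean counts of all rows and were left out of all counts here.

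Means were identical in the 3 tables, and fold changes of the 3 comparisons added up for each member. Levels per population were solved from the mean and 2 fold changes. Intervals are normal, at 95%. Identifiers were matched without version to GENCODE M21, which named 20618 genes. Level per kb divides by merged exon length in that annotation. Computation used Python 3.11.15, pandas 2.3.3 and scipy 1.17.1.

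The 39 members, the pathway and marker lists and the tests were chosen with earlier results of these data known. Values are given for members with a mean of 100 or more that passed anywhere, the others by level, range or count, with a few of their fold changes added after their values were seen. From the pathway lists the text takes up to 6 called genes per comparison with a mean of 100 or more and the largest change, some of which are not reported here. Calls were recomputed under 8 alternatives, after a test of the script on simulated data.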

Additional observations from a re-analysis of the deposited data

How the results depend on the processing

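No paired analysis was possible because the deposited tables hold no value per library, and for the same reason no replicate could be left out. Both alternatives were not run. Counts of members stayed within 1.5 times the ones reported in all 3 comparisons when p was adjusted over every gene, over genes whose mean was 10 or more, or after re-centring on the median gene. An adjusted p below 0.01 left 3 in ICAM1+ against CD142+, 3 higher and 0 lower, and one below 0.1 gave 3 lower there. Adjusting over genes whose mean was 100 or more, which leaves out the 7 members of lower mean, gave 4 higher and 2 lower in ICAM1+ against CD142+. With an absolute log2 fold change of at least 1 required as well, 16 members passed in ICAM1+ against DPP4+ (9 higher and 7 lower) and 3 in ICAM1+ against CD142+ (3 higher and 0 lower). Tested against a log2 fold change of 1, 9 passed in ICAM1+ against DPP4+ (5 higher and 4 lower), 4 in CD142+ against DPP4+ (1 higher and 3 lower) and 0 in ICAM1+ against CD142+ (0 higher and 0 lower), where 1 member had an unadjusted p below 0.05 in this Wald test from the deposited SEs. DPP4+ cells then differed in 1 direction from both others for 4 members, against 18 as reported. Re-centring turned the sign of 6 differences in CD142+ against DPP4+ that had not passed, to 0.00995 for Itga10, 0.0212 for Itgb1, 0.0263 for Ilk, 0.0269 for Parva, 0.0127 for Flna and 0.0256 for Tns2, and no called difference changed direction under any of the 8 alternatives. It ended the ICAM1+ against DPP4+ calls of Parva and Pxn and added the ICAM1+ against CD142+ call of Itga5 (adjusted p = 0.045). Depth per library is unknown, so the SEs alone bound the precision.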
